A study of Mus musculus with 12 samples.

Results

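The genes described here encode the machinery of mitochondrial and peroxisomal fatty acid oxidation, and their levels were measured by RNA sequencing in the livers of 12 male C57BL/6J mice. The set holds 38 named genes of the 22156 gene names in the deposited table, and 37 of the 38 have rows under their own name. They were chosen by symbol for their role, with earlier results of these data known. The exception is Acot1, whose reference transcript is filed under the name Acot2 and is described there. The mice were individually housed, were 21 weeks old at sampling, and had been fed from 5 weeks of age for 16 weeks with a normal diet (ND), a high-fat diet (HFD), the high-fat diet with an ethanol extract of chrysanthemum leaf at 1.5% of diet weight (CLE) or the high-fat diet with luteolin at 0.003% of diet weight (LU). Each group has 3 mice, and the CLE and LU mice ate the high-fat diet throughout. All mice had fasted for 12 h before sampling, so the levels are those of fasted livers. Luteolin is a plant flavone, and the extract holds a mixture of leaf compounds. The comparisons ask how the high-fat diet moved the hepatic oxidation genes and how their levels differed when the extract or luteolin was added to it.

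Levels are FPKM, the number of sequenced fragments assigned to a transcript scaled to its length and to the size of the library, summed over the transcripts of each gene name. Differences are log2 fold changes of FPKM + 1 with their standard errors (SE), from limma's moderated test fitted over the 11528 genes whose mean level reached 0.5 FPKM, and a gene is said to have risen or fallen where its Benjamini-Hochberg adjusted p was below 0.05. All 37 genes with rows entered that test. Read counts were not part of the table, so sequencing depth is unknown and counting error has no interval here.

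As background, long-chain fatty acids are activated to acyl-CoA by acyl-CoA synthetases and enter mitochondria through the carnitine shuttle, of which Cpt1a encodes the rate-limiting liver enzyme. Inside, acyl-CoA dehydrogenases, the trifunctional protein and thiolases remove acetyl-CoA in repeated rounds, and electron transfer flavoprotein passes the electrons on to the respiratory chain. Peroxisomes take up very long-chain, branched and bile acid precursor chains through ABCD transporters and shorten them with their own oxidases, bifunctional enzymes and thiolases. Many of these genes are targets of PPAR-alpha, the fatty acid receptor encoded by Ppara, which binds DNA with RXR at repeats of AGGTCA separated by a single base.

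Promoters are shown for 3 genes that fell in HFD livers and that represent activation (Acsl1), entry (Cpt1a) and the trifunctional protein (Hadhb). The sequences are RefSeq promoter windows on GRCm38.p6, of which only the bases before the start and outside annotated exons are printed, 5′ to 3′ on the plus strand. Capitals mark GGGCGG, the GC box, in the Hadhb and Acsl1 windows, and AGGTCA read on the reverse strand in the Cpt1a window. The stretches are chr5:30155163-30155247, chr8:46470787-46471036 and chr19:3323051-3323284.
Hadhb: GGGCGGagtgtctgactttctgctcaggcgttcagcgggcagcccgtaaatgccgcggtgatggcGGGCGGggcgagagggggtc
Acsl1: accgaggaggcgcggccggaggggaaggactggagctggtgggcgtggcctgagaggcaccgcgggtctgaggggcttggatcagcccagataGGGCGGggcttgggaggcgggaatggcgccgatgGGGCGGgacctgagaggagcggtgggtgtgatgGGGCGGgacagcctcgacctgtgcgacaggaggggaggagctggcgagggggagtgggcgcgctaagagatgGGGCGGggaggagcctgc
Cpt1a: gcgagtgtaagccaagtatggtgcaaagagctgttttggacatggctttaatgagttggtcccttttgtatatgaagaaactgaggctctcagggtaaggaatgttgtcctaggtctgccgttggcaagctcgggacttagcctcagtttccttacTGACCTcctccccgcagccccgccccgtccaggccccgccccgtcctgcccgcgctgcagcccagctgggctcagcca

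Hadhb lies head to head with Hadha, so the stretch shown for Hadhb is also the region upstream of Hadha. The RefSeq starts of the pair are separated by 272 bases, and their 300-base windows share 228 bases. RefSeq windows of 250 bases before to 50 after the start were found for 33 of the 38 genes, 37 windows in all. GGGCGG occurred on either strand in 23 of the 37 windows (62.2%) against 35.7% of the 32851 windows of all genes, and CCAAT, the CCAAT box, in 19 (51.4%) against 37.4%. The hexamer AGGTCA occurred in 8 windows of 7 genes (21.6%), namely Acadm, Acadvl, Acot3, Acot4, Cpt1a, Echs1 and Scp2, against 16.3% of all windows. Direct repeats of AGGTCA with any single base between the copies, which count among these hits too, occurred in 0 of the 37 windows and in 0.0396% of all windows, so the letters are rare in windows of this length.

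Some properties of the libraries bear on these genes. The 12 livers expressed hepatocyte markers, while albumin was listed at 0 in 11 of the 12, so a value of 0 in this table can be a failed estimate. The pancreas markers Cpa1, Cela2a and Pnlip summed to at most 0.292 FPKM, with Cpa1 and Pnlip at 0 in all 12 livers. The adipocyte markers summed to at most 0.172 FPKM outside the LU group and to 0.824 to 1.26 FPKM within it. The relation of a gene's GC content to its deviation from its mean over the livers, taken across 11398 genes, was negative in the 6 ND and HFD libraries (Spearman's rho -0.37 to -0.14) and positive in the 6 CLE and LU libraries (0.16 to 0.48). A score of 14 clock genes, the mean of their z-scores with the sign of the opposite-phase genes turned, ran from -1.58 to -0.251 in ND, from -0.401 to 0.38 in HFD, from 0.193 to 0.866 in CLE and from 0.244 to 0.843 in LU livers.

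**Figure D1:**
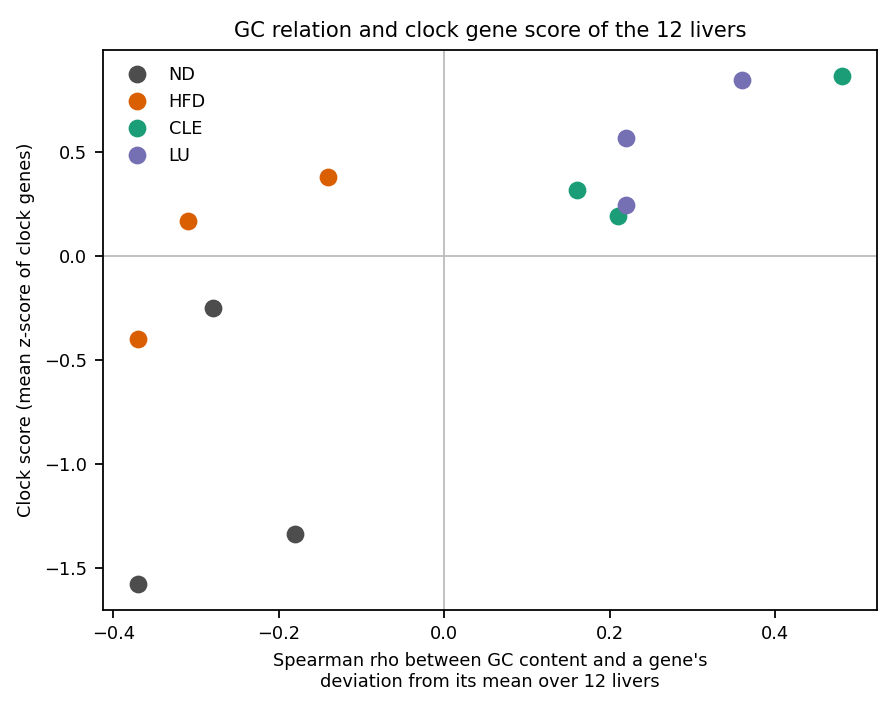
Each point is a liver, placed by the rank correlation (Spearman's rho) between the GC content of 11398 genes and their deviation in that liver (horizontal axis) and by its clock gene score, a mean z-score (vertical axis). The CLE and LU livers lie to the right of 0 and the ND and HFD livers to the left, and the lowest clock scores belong to ND livers.

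In HFD livers, 3 of the 6 activation and entry genes and both genes of the trifunctional protein were lower than in ND livers. Of the 37 genes, 6 fell (Acsl1, Acsl5, Cpt1a, Hadha, Hadhb and Abcd3) and 1 rose (Acox2), where 2.07% of all 11528 genes fell and 9.91% rose (12.0% in either direction). The 3 HFD values lay all below the 3 ND values for 15 of the 37 genes and all above for 3, where 7.43% and 29.0% of all genes did so, and 11 genes had an unadjusted p below 0.05 (27.2% of all genes). The estimate was negative for 29 of the 37 genes, with a median of -0.16 against 0.11 over all genes tested. With the values as deposited, 82.7% of all called genes were higher in HFD livers, and with median-of-ratios scaling 55% were, as the median of all genes moved from 0.11 to -0.01. Under that scaling 10 of the 37 genes fell, namely the same 6 with Eci2, Decr1, Etfdh and Crat, and none rose. Of all 11528 genes, 612 rose and 500 fell with that scaling. In whole tissue, fewer cells of a type and less RNA per cell cannot be told apart.

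Acsl1 (chr8:46471037-46536051), the main long-chain acyl-CoA synthetase of liver, was at 1073, 1013 and 1017 FPKM in the ND livers and at 535, 710 and 600 FPKM in the HFD livers. The groups did not overlap, and Acsl1 fell by 0.76 on the log2 scale (SE 0.14, adjusted p = 0.004, n = 3 each), to 0.595 of the ND mean. Acsl5 (chr19:55251938-55297720), a synthetase of the same family, was at 151, 168 and 149 FPKM in ND and at 85.9, 94.4 and 94.9 FPKM in HFD livers. It also fell by 0.76 (SE 0.14, adjusted p = 0.0042), and all HFD livers lay below all ND livers.

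Cpt1a (chr19:3322334-3385733), carnitine palmitoyltransferase 1A, was at 346, 339 and 332 FPKM in ND and at 235, 219 and 276 FPKM in HFD livers. It fell by 0.48 (SE 0.13, adjusted p = 0.033), and the highest HFD liver lay below the lowest ND liver. The rest of the shuttle moved less. Cpt2, which rebuilds acyl-CoA on the inner membrane, differed by -0.16 (SE 0.11, adjusted p = 0.38), and Slc25a20, the carnitine-acylcarnitine carrier, by -0.07 (SE 0.11, adjusted p = 0.76). Crat, which makes acetylcarnitine, was at 96.4 to 115 FPKM in ND and 53.2 to 81.1 FPKM in HFD livers, without overlap, and its difference of -0.63 (SE 0.22) missed the threshold at an adjusted p of 0.085. Summed over the 6 genes of activation and entry, the level was 1938 ± 55.8 FPKM in ND and 1300 ± 109 FPKM in HFD livers (mean ± SD, n = 3), and 3 of these 6 genes fell.

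Hadha (chr5:30118304-30155162) and Hadhb (chr5:30155248-30184593) encode the alpha and beta subunits of the mitochondrial trifunctional protein, which carries out the last steps of long-chain oxidation. Hadha was at 274, 247 and 256 FPKM in ND and at 181, 202 and 183 FPKM in HFD livers. Hadhb was at 275, 235 and 242 FPKM in ND and at 156, 172 and 157 FPKM in HFD livers. Neither gene's groups overlapped, and Hadha fell by 0.46 (SE 0.13, adjusted p = 0.036) and Hadhb by 0.63 (SE 0.13, adjusted p = 0.01). The subunits stood at nearly the same level within each group, with means of 259 and 251 FPKM in ND and of 189 and 162 FPKM in HFD livers.

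The remaining mitochondrial genes showed no change that passed the test. The 14 genes of the mitochondrial spiral, its auxiliary enzymes and electron transfer had a median difference of -0.13, from -0.63 for Hadhb to 0.32 for Hadh, and 2 fell. The dehydrogenases for very long, long, medium and short chains (Acadvl, Acadl, Acadm and Acads) lay between -0.22 and 0.16, with adjusted p from 0.27 to 0.9. Etfdh, which hands electrons to ubiquinone, was at 241 to 299 FPKM in ND and at 195 to 209 FPKM in HFD livers, a difference of -0.44 (SE 0.15) with an adjusted p of 0.083. Hadh, the medium- and short-chain hydroxyacyl-CoA dehydrogenase, went the other way, at 282 to 326 FPKM in ND and 355 to 387 FPKM in HFD livers (0.32, SE 0.15, adjusted p = 0.18). The sum of the 14 genes was 3925 ± 275 FPKM in ND and 3638 ± 59.4 FPKM in HFD livers.

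In the peroxisomal arm of 12 genes, Abcd3 fell and Acox2 rose. Abcd3 (chr3:121758774-121815302), a transporter that brings acyl-CoA into the peroxisome, was at 466, 433 and 470 FPKM in ND and at 303, 343 and 287 FPKM in HFD livers, and fell by 0.55 (SE 0.13, adjusted p = 0.017). Acox2 (chr14:8225511-8259353), the oxidase for branched chains and bile acid precursors, was at 92.2, 101 and 111 FPKM in ND and at 140, 139 and 137 FPKM in HFD livers, and rose by 0.45 (SE 0.11, adjusted p = 0.017). Both genes' groups were apart, and the 3 HFD values of Acox2 were the closest together of its 4 groups. The call for Acox2 was lost with median-of-ratios scaling (0.30, adjusted p = 0.15).

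Other peroxisomal genes spread too widely or moved too little to pass. Ehhadh, the bifunctional enzyme, ranged from 591 to 1414 FPKM among ND livers alone and from 553 to 729 FPKM in HFD livers (-0.58, SE 0.29, adjusted p = 0.22). The most abundant genes were Acaa1b, a peroxisomal thiolase, at 4371 ± 406 FPKM in ND and 4021 ± 264 FPKM in HFD livers, and Scp2, which encodes a sterol carrier with thiolase activity, at 2957 ± 93.2 and 2973 ± 186 FPKM. Fragments of Acaa1a and Acaa1b, which are near copies, may be shared out between them. Abcd2 was the lowest of all, with 5.96 to 10.7 FPKM over ND and HFD livers. The receptor gene Ppara itself was at 74.5 ± 13.4 FPKM in ND and 67.5 ± 11.4 FPKM in HFD livers (-0.14, SE 0.16, adjusted p = 0.64).

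**Figure D2:**
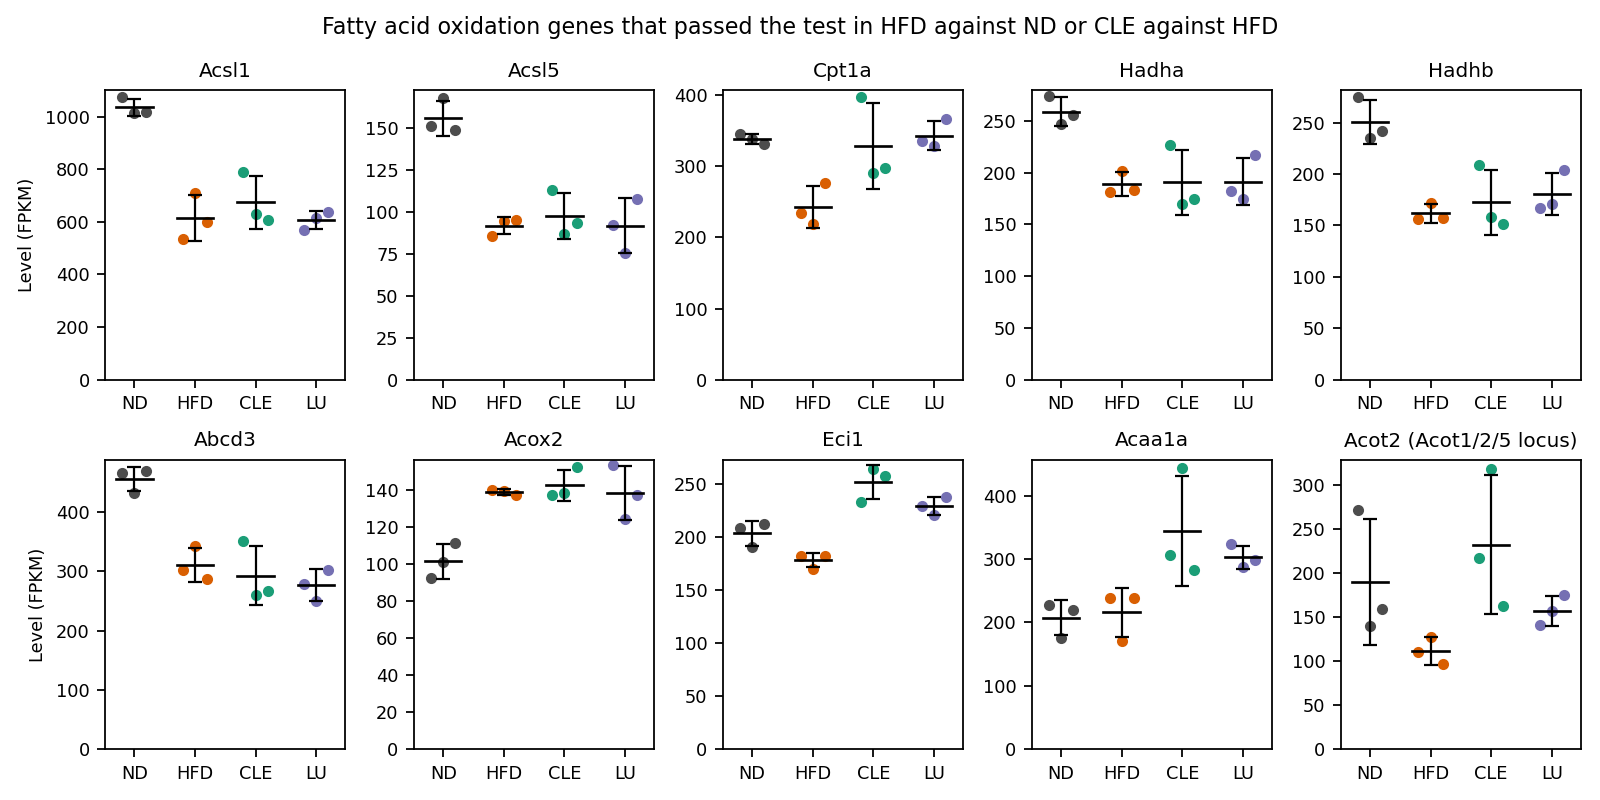
Points are the FPKM of single livers by diet group for the 10 genes that passed the test in HFD against ND or in CLE against HFD, with the group mean as a line and the SD as a bar (n = 3, axes from 0). Acsl1, Acsl5, Hadha, Hadhb and Abcd3 are high in ND livers only, while Eci1 has its highest values in CLE livers.

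Other cell types and the clock differed between these groups too. The summed Kupffer cell and macrophage markers were 93.9 to 119 FPKM in ND and 144 to 219 FPKM in HFD livers, with 3 of 6 tested markers higher. The stellate cell markers were 72.6 to 103 and 128 to 162 FPKM, with 4 of 6 higher, where 9.91% of all genes were higher. The part of these cell types in the differences was not tested. With the clock score as a covariate, none of the 7 genes passed, with adjusted p for Acsl5 of 0.09 and Acsl1 of 0.13 and log2 fold changes of -0.74 and -0.61. ND clock scores lay mostly below HFD scores, so this fit separates the clock from the diet only poorly. Leaving out single livers left 2 to 8 genes that passed, fewest without mouse 2 of the ND group (2 genes) and mouse 12 of the HFD group (3 genes), then mice 15 and 18 of the HFD group and mouse 4 of the ND group (4 genes each).

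In CLE livers, 3 of the 37 genes rose against HFD and none fell, where 2.93% of all genes rose and 3.37% fell (6.31% in either direction). Eci1 (chr17:24426641-24439348), which shifts double bonds so that unsaturated chains can be oxidized in mitochondria, was at 182, 170 and 182 FPKM in HFD and at 233, 264 and 257 FPKM in CLE livers. It rose by 0.50 (SE 0.10, adjusted p = 0.021), and the CLE values also lay above the 190 to 212 FPKM of ND livers. Acaa1a (chr9:119339676-119350299), a peroxisomal thiolase, was at 238, 171 and 238 FPKM in HFD and at 306, 443 and 282 FPKM in CLE livers, and rose by 0.66 (SE 0.18, adjusted p = 0.049). The gene name Acot2, which pools a cluster of acyl-CoA thioesterases, was at 111, 128 and 96.8 FPKM in HFD and at 217, 318 and 163 FPKM in CLE livers, and rose by 1.01 (SE 0.25, adjusted p = 0.04), to 2.08 times the HFD mean.

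The value under the name Acot2 was mostly that of Acot1, the cytosolic thioesterase that splits acyl-CoA. The Acot1 reference transcript (chr12:84009502-84017670) made up 83.8% of it, and the Acot2 reference transcript (chr12:83987861-83993873), which encodes the mitochondrial enzyme, 10.1%. The Acot1 transcript was at 244, 121 and 135 FPKM in ND, at 88.5, 102 and 77 FPKM in HFD, at 170, 272 and 137 FPKM in CLE and at 122, 140 and 133 FPKM in LU livers, so its CLE and LU values all exceeded its HFD values. Fragments may be shared out among these near-identical genes, and the split between them is uncertain. Acot3 and Acot4, peroxisomal thioesterases of the same cluster, ranged from 16.7 to 49.4 and from 17.4 to 30 FPKM in CLE livers against 16.7 to 27.2 and 18 to 24.4 FPKM in HFD livers, and neither passed (adjusted p = 0.32 and 0.51).

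Of the 6 genes that were lower in HFD than in ND livers, Acsl1, Acsl5, Hadha, Hadhb and Abcd3 overlapped between CLE and HFD livers, with estimates from -0.10 to 0.13. For Acsl1 the 95% interval of the difference ran from -0.16 to 0.43, and for Abcd3 from -0.38 to 0.19. Cpt1a was at 398, 290 and 297 FPKM in CLE livers, all above the HFD values of 219 to 276 FPKM, but its difference of 0.42 (SE 0.13) missed the threshold at an adjusted p of 0.067. Without overlap but past only the unadjusted threshold were also Ehhadh (903 to 1575 FPKM against 553 to 729 FPKM, 0.91, adjusted p = 0.071) and Pex11a, which promotes peroxisome division (167 to 262 FPKM against 132 to 147 FPKM, 0.55, adjusted p = 0.063). The difference of Ehhadh depended on the transcripts summed, as given below. Hadh was lower in all CLE livers (221 to 313 FPKM against 355 to 387 FPKM, -0.49, adjusted p = 0.061). In all, 15 of the 37 genes had an unadjusted p below 0.05, where 29.5% of all genes did. Without overlap, 12 were higher, against 16.3% of all genes, and 2 were lower, against 1730 of the 11528 genes (31.3% of all genes in either direction).

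Of the mitochondrial arm, 1 of 14 genes rose and the median difference was 0.10, and of the peroxisomal arm 1 of 12 rose and the median was 0.04, against 0.02 over all genes. The sum of the activation and entry genes was 1483 ± 186 FPKM in CLE livers and that of the mitochondrial genes 4029 ± 175 FPKM. The libraries differed in GC relation in the same split, and Acaa1a lies at percentile 94 of GC content among tested genes, Acot2 at percentile 66.3 and Eci1 at percentile 65.2. After each library was corrected for GC content, Eci1 still passed (0.42, adjusted p = 0.043), while Acaa1a (0.39, adjusted p = 0.15) and Acot2 (0.92, adjusted p = 0.062) did not. Mouse 4 of the CLE group had the highest GC relation of the 12 livers, and without it none of the 3 genes passed (adjusted p = 0.063 for Eci1, 0.19 for Acaa1a and 0.16 for Acot2). None passed either without any single HFD liver. Without mouse 2 of the CLE group 8 genes passed, 5 higher and 3 lower, where 2191 of all 11528 genes passed.

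**Figure D3:**
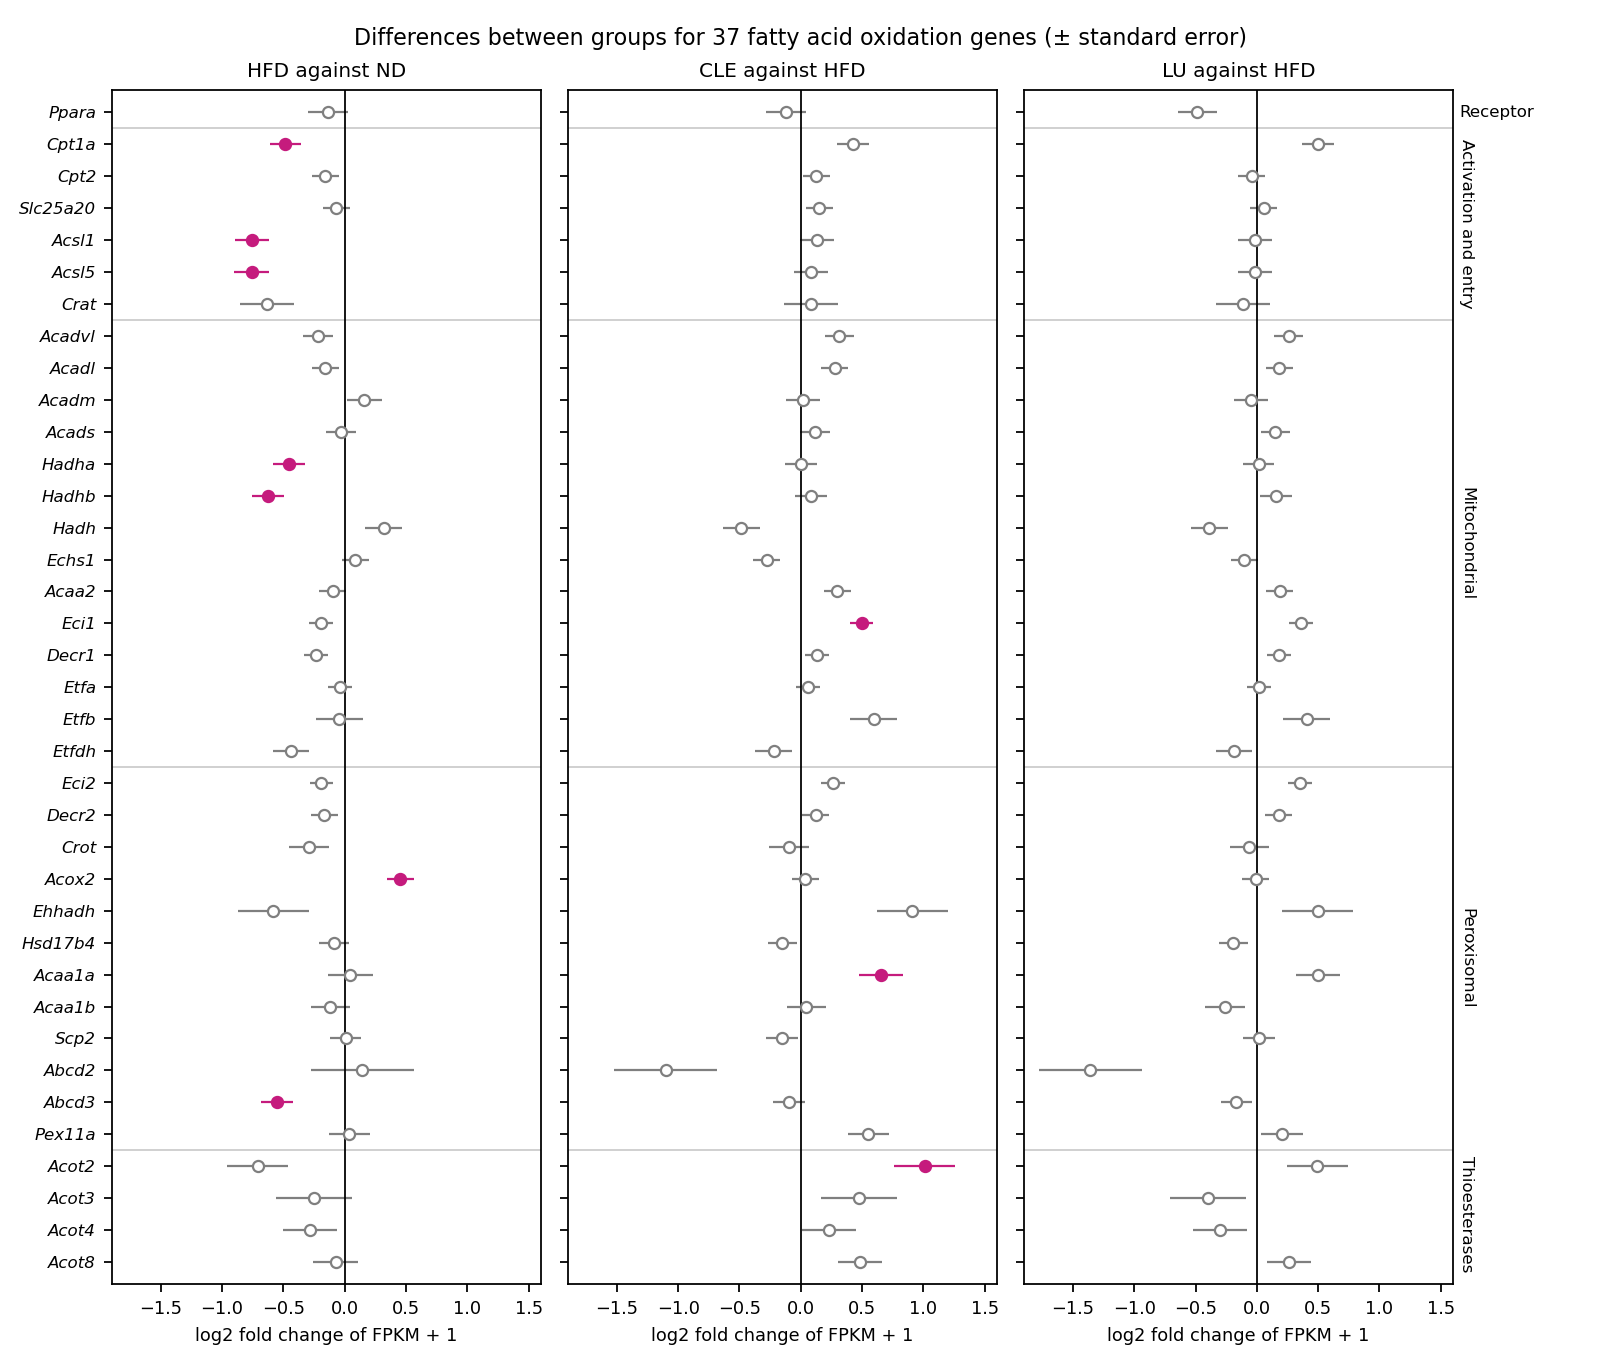
Each point is the log2 fold change of FPKM + 1 of a gene (horizontal axis, bars are ± SE) for HFD against ND (left), CLE against HFD (middle) and LU against HFD (right), with genes grouped by role (vertical axis) and filled where the adjusted p was below 0.05. The first panel holds 6 filled points below 0 and 1 above, the second 3 above, and the third none.

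In LU livers, none of the 37 genes passed against HFD in limma's test, where 1.02% of all genes did (0.295% higher and 0.729% lower), and 8 had an unadjusted p below 0.05 against 20.4% of all genes. Without overlap, 10 were higher and 3 lower, against 13.1% and 17.0% of all genes. Cpt1a was at 335, 328 and 367 FPKM in LU livers, all above HFD (0.50, SE 0.13, adjusted p = 0.087). Eci1 was at 229, 220 and 237 FPKM, above every HFD and ND liver (0.36, SE 0.10, adjusted p = 0.086), and with quantile normalization it passed. Eci2, its peroxisomal counterpart, was at 377, 362 and 386 FPKM against 301, 283 and 297 FPKM in HFD livers (0.35, SE 0.10, adjusted p = 0.09). Acaa1a was at 323, 287 and 298 FPKM (0.50, SE 0.18, adjusted p = 0.16).

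Ppara was lowest in LU livers, at 43.4, 43.5 and 56.7 FPKM against 59.6, 80.6 and 62.5 FPKM in HFD livers, without overlap (-0.49, SE 0.16, adjusted p = 0.14). An assembled transcript of the opposite strand, left out of this sum, went the other way, at 33.2 to 53.1 FPKM in LU and 17.3 to 32.5 FPKM in HFD livers. The library kit does not mark strand, so reads of the 2 cannot be told apart. Abcd2, a transporter close to Abcd3, was at 2.47, 0.873 and 6.22 FPKM in LU and at 5.96, 10.7 and 8.71 FPKM in HFD livers, which overlapped (-1.36, SE 0.42, adjusted p = 0.12). Acsl1 and Acsl5 stood at the HFD level, with differences of -0.01 each and a 95% interval from -0.31 to 0.28 for both. The comparisons of CLE and of LU with HFD share the same 3 HFD livers.

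Against ND, 11 genes passed in CLE livers, 5 higher and 6 lower, where 20.9% of all genes rose and 6.14% fell. In LU livers 9 passed, 1 higher and 8 lower, where 11.2% of all genes rose and 3.83% fell. These comparisons and that of HFD share the same ND livers. With the values as deposited, 77.3% of all called genes were higher in CLE and 74.5% in LU livers, and with median-of-ratios scaling 43% and 40.7% were, as the median of all genes moved from 0.16 to 0.02 and from 0.12 to 0.02. Under that scaling none of the 37 genes rose, and 10 fell in CLE and 11 in LU livers. Of all 11528 genes, 1220 rose and 1619 fell in CLE livers with that scaling, and 719 rose and 1047 fell in LU livers. The 5 genes Acsl1, Acsl5, Hadha, Hadhb and Abcd3 were lower in CLE livers by 0.45 to 0.67 and in LU livers by 0.44 to 0.77 on the log2 scale, and in HFD livers by 0.46 to 0.76. Acsl1, for example, was at 789, 628 and 605 FPKM in CLE and at 568, 613 and 637 FPKM in LU livers, all below the ND values of 1013 to 1073 FPKM. Etfdh fell in CLE (-0.66, SE 0.15, adjusted p = 0.011) and in LU livers (-0.62, SE 0.15, adjusted p = 0.021), and was at 143 to 208 and at 157 to 213 FPKM.

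Acox2 rose against ND in CLE livers (0.49, adjusted p = 0.0088), at 137 to 152 FPKM, and in LU livers (0.44, adjusted p = 0.02), at 124 to 153 FPKM. Higher in CLE livers were also Acaa1a (0.70, adjusted p = 0.015), Pex11a (0.59, adjusted p = 0.024), Etfb, the beta subunit of electron transfer flavoprotein (0.55, adjusted p = 0.043, with overlap), and Eci1 (0.31, adjusted p = 0.034). After correction for GC content none of these 5 passed, nor did they with median-of-ratios scaling (0.13 to 0.53). Lower in LU livers were also Crat (-0.74, SE 0.22, adjusted p = 0.042) and Ppara (-0.62, SE 0.16, adjusted p = 0.026). With an assembled transcript of the opposite strand added to its sum, the difference of Ppara was -0.04 (adjusted p = 0.86). Cpt1a did not pass against ND in either group, with differences of -0.06 in CLE and 0.02 in LU livers (SE 0.13 each).

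The clock score and the markers of other cell types moved with these comparisons as well. With the clock score as a covariate none of the 11 and 9 genes passed, and the difference of Etfdh was -0.24 in CLE (adjusted p = 0.73) and -0.18 in LU livers (adjusted p = 0.92). All ND clock scores lay below all CLE and LU scores, so this fit cannot separate the clock from the diet. The summed stellate cell markers were 127 to 201 FPKM in CLE and 128 to 170 FPKM in LU livers against 72.6 to 103 FPKM in ND livers, with 4 of 6 higher in each. The Kupffer cell and macrophage markers summed to 132 to 202 FPKM in CLE and 106 to 196 FPKM in LU livers, with 2 and 1 of 6 higher. Over all genes, 20.9% were higher in CLE and 11.2% in LU livers. The part of these cell types in the differences was not tested.

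CLE and LU livers differed in none of the 37 genes by limma's adjusted test, where 0.00867% of all genes (1 gene) did, and in 3 genes at an unadjusted p below 0.05 against 4.38% of all genes. Those 3 were Ppara (0.37 higher with CLE, 95% interval 0.01 to 0.72), Acot3 (0.87, 0.20 to 1.55) and Acot4 (0.53, 0.06 to 1). The value for Ppara again leaves out the transcript of the opposite strand. For Eci1 the difference was 0.14 with an interval from -0.07 to 0.34, for Cpt1a -0.08 from -0.37 to 0.21 and for Acot2 0.51 from -0.03 to 1.06. Among all 4 groups, limma's F test found 11 of the 37 genes, where 24.4% of all genes passed. They were Acsl1, Acsl5, Abcd3, Eci1, Acox2, Hadhb, Acaa1a, Etfdh, Cpt1a, Hadha and Acot2.

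Some of the transcripts behind these sums divided the libraries as the GC relation did, with ND and HFD on one side and CLE and LU on the other. In comparisons of CLE or LU with HFD or ND, the diet additions and this difference between libraries cannot be told apart. The table holds reference transcripts and transcripts that Cufflinks assembled from the reads, and for several of the genes the fragments of CLE and LU livers were assigned to assembled forms. The assembled form of Acsl1, which starts 585 bases before the reference transcript at chr8:46470456-46536051 and so spans the promoter stretch shown above, was below 0.01 FPKM in all 6 ND and HFD livers, at 156, 388 and 265 FPKM in CLE and at 244, 289 and 181 FPKM in LU livers. The reference transcript was at 1001, 882 and 930 FPKM in ND, at 498, 638 and 526 FPKM in HFD, at 583, 189 and 304 FPKM in CLE and at 294, 265 and 421 FPKM in LU livers. Counted on reference transcripts alone, the difference of Acsl1 between CLE and HFD livers was -0.73 (adjusted p = 0.12) in place of 0.13.

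Cpt1a showed the same split, and the sign of its difference depended on it. An assembled transcript within its last exon, exon 19 (chr19:3382034-3385732), was at 90.6, 46.7 and 31.3 FPKM in ND, at 78.3, 22 and 80.9 FPKM in HFD, at 172, 221 and 198 FPKM in CLE and at 205, 202 and 192 FPKM in LU livers. The full reference transcript was at 252, 287 and 296 FPKM in ND, at 155, 192 and 194 FPKM in HFD, at 223, 62.2 and 85.3 FPKM in CLE and at 123, 103 and 153 FPKM in LU livers. The higher sums of Cpt1a in the LU livers and in mice 4 and 11 of the CLE group came from the last-exon transcript. In mouse 2 of the CLE group the reference transcript, at 223 FPKM, also exceeded every HFD liver. On reference transcripts alone CLE lay below HFD (-0.76, adjusted p = 0.18) and fell against ND (-1.38, adjusted p = 0.021). An assembled form of Ehhadh was at most 5.75 FPKM in the ND and HFD livers, and at 109, 1098 and 358 FPKM in CLE and 266, 438 and 174 FPKM in LU livers. The reference transcripts of Ehhadh summed to 943 ± 404 FPKM in ND and 598 ± 96.6 FPKM in HFD livers (mean ± SD). In CLE and LU livers they summed to 641 ± 247 and 571 ± 243 FPKM, close to the HFD level.

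**Figure D4:**
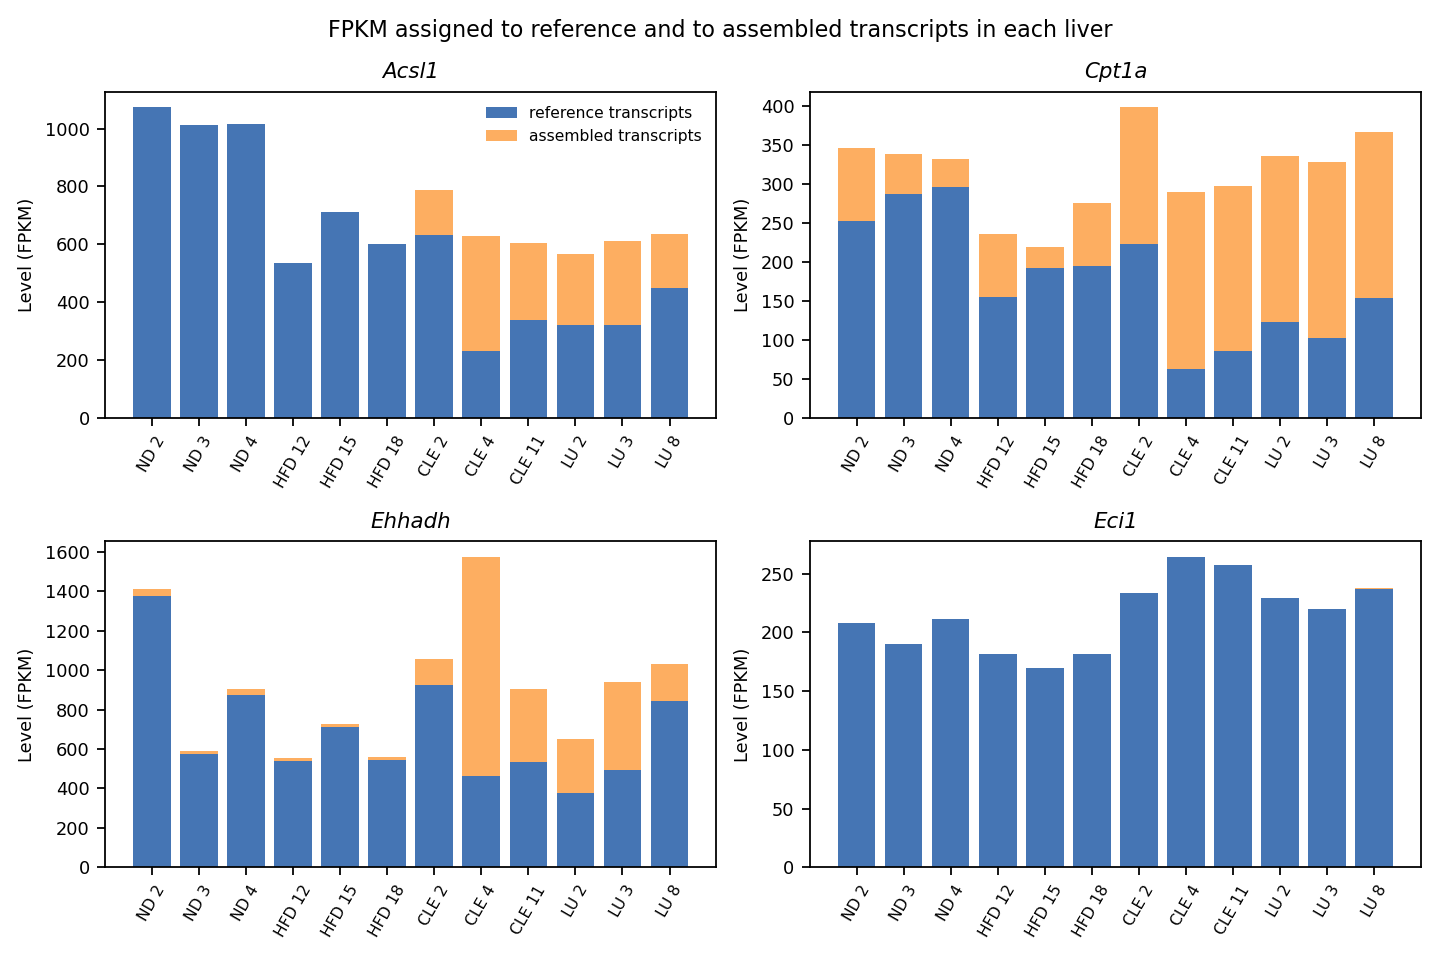
Bars are the FPKM of each liver assigned to reference transcripts (blue) and to assembled transcripts (orange) of Acsl1, Cpt1a, Ehhadh and Eci1, stacked, with axes from 0. The assembled part of Acsl1 is near 0 in the 6 ND and HFD livers and 156 FPKM or more in the 6 CLE and LU livers, whereas Eci1 is carried by its reference transcript in all 12.

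Of the 37 assembled transcripts of these genes that averaged 5 FPKM or more, 10 were higher in all 6 CLE and LU livers than in all 6 ND and HFD livers and 6 were lower in all, where 14.4% and 6.38% of the 2304 such transcripts of all genes were. Of their 70 reference transcripts, 8 were higher and 6 lower, against 5.12% and 6.55% of 6814. The assembled counts of 37 and 10 include the opposite-strand transcript named Ppara, which was left out of the sums. The share of FPKM in assembled transcripts, as the median over 33 of these genes, was 5.4% to 7.45% in ND and HFD, 5.21% to 10.5% in CLE and 4.16% to 4.83% in LU livers. Of their summed FPKM, 24.3% to 27% lay in assembled transcripts in ND and HFD livers and 23.7% to 32.2% in CLE and LU livers, which overlapped. Over all genes the median share was 20.9% to 23.3% in ND and HFD livers and 23.6% to 30.1% in CLE and LU livers. Eci1 has a single reference transcript in the sum, and its difference between CLE and HFD livers was 0.50 with an adjusted p of 0.031 on reference transcripts alone. The main reference transcript of Acaa1a was at 115 to 148 FPKM in the ND and HFD livers and at 168 to 200 FPKM in the CLE and LU livers.

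Other genes of the pathway were counted from lists set by function. The lists were chosen with earlier results of these data known, so the counts are descriptions and not independent support. Of 14 other PPAR-alpha targets tested, 6 fell in HFD livers and none rose, where 2.07% of all genes fell and 9.91% rose. The median of the 14 was -0.63. Cyp4a31, a fatty acid omega-hydroxylase, was at 60.7, 45.6 and 53.1 FPKM in ND and at 15.2, 17.9 and 13.7 FPKM in HFD livers (-1.70, SE 0.20, adjusted p = 2e-04). Cyp4a32 (-1.81), Cyp4a14 (-1.47) and Cyp4a10 (-0.71, with overlap), of the same family, fell too, as did Retsat, a retinol saturase (-0.84), and Txnip, a thioredoxin inhibitor (-0.98). In CLE livers Cyp4a31 (1.03), Retsat (0.75) and the fatty acid transporter Slc27a1 (1.06) rose against HFD, 3 of 14, where 2.93% of all genes rose. In LU livers none of the 14 passed, where 1.02% of all genes did. These Cyp4a genes are near copies, and their values may be shared out between them.

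Of 19 other mitochondrial genes tested, 3 rose in HFD livers (Acad9, Acot9 and Acot13) and 1 fell. Of all genes, 9.91% rose and 2.07% fell. The gene that fell was Acacb, which makes the malonyl-CoA that inhibits Cpt1a, at 15.5, 25 and 14.5 FPKM in ND and at 3, 5.25 and 5.15 FPKM in HFD livers (-1.81, SE 0.27, adjusted p = 0.0011). Mlycd, which breaks malonyl-CoA down, rose in CLE (0.56, adjusted p = 0.019) and in LU livers (0.50, adjusted p = 0.04) against HFD, at 80.3 to 94 and 81.3 to 85.8 FPKM over 54.7 to 64.4 FPKM. Cpt1b, the muscle form of the entry enzyme, rose with CLE (0.89, adjusted p = 0.03), at 72.7, 115 and 64.4 FPKM over 40.4 to 46.3 FPKM in HFD livers. Markers of skeletal and heart muscle summed to at most 0.0317 FPKM, and the transcripts behind the name Cpt1b were not examined. Tmlhe and Bbox1 of carnitine synthesis and Mut and Pccb of propionate metabolism fell with CLE (-0.49 to -0.97). Of all genes, 2.93% rose and 3.37% fell in CLE against HFD. In LU livers Mlycd was the only gene of the 19 to pass, where 1.02% of all genes did.

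Of 24 other peroxisomal genes, 3 rose in HFD livers and 2 fell, where 9.91% of all genes rose and 2.07% fell. Nudt7, a CoA diphosphatase (-1.50, adjusted p = 0.018), and Hacl1, the lyase of alpha-oxidation (-1.29, adjusted p = 0.0018), fell, and Acnat2, an acyltransferase (1.74), and Acot6, a thioesterase (0.59), rose. Hao2, a hydroxyacid oxidase, is also among the 3 counted as higher. It was listed at 0 in the 3 ND livers and was at 1.77, 2.44 and 1.58 FPKM in HFD livers. In CLE (-1.19) and LU livers (-1.31) it was called lower than in HFD livers, with means of 0.276 and 0.176 FPKM. Its mean of 0.596 FPKM over the 12 livers reached the filter of 0.5 FPKM only through the HFD group, so these calls are not read as a result. Of 13 peroxisome biogenesis genes, none passed in HFD against ND or in CLE or LU against HFD. Of all genes, 12.0%, 6.31% and 1.02% passed in these comparisons.

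Of 17 partners and regulators of PPAR-alpha, Pparg rose in HFD livers (0.70, adjusted p = 0.023) and Prkaa2, a catalytic subunit of AMP-activated kinase, fell in CLE against HFD (-0.68, adjusted p = 0.048), and none passed in LU against HFD. The receptor partner Rxra was at 106 to 145 FPKM in ND and 90 to 115 FPKM in HFD livers (adjusted p = 0.49), and the coactivator Ppargc1a at 2.5 to 6.32 and 2.76 to 5 FPKM (adjusted p = 0.94). Of the 14 clock genes, 3 rose and 1 fell in HFD livers and none passed in CLE or LU against HFD. Over all genes, 9.91% rose and 2.07% fell in HFD livers, and 6.31% and 1.02% passed in CLE and LU against HFD. Dbp, a clock output gene, was at 3.01, 21.4 and 2.06 FPKM in ND and at 23.1, 6.94 and 29.5 FPKM in HFD livers, with mouse 3 of the ND group apart from its group.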

How the data were processed

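Liver mRNA of 12 mice was sequenced as paired reads (TruSeq RNA kit, which does not mark strand). Per the submitters' processing notes, CASAVA 1.8.2, Bowtie2 2.2.3, TopHat2 2.0.12 and Cufflinks 2.2.1 were used, and the authors deposited one table of FPKM per transcript, assembled over 30 samples, of which 12 are here. Whether the deposited FPKM include further normalization and which genome build was used are not given in the sources used here. GENCODE M21 (GRCm38) holds 85.5% of the known transcripts at identical start and end positions, and it gave coordinates and GC content. Values of 145075 transcripts were summed by gene name. Left out were 6316 transcripts without a name and 819 on the opposite strand or inside introns, of which 1 is named Ppara.

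For the comparisons, limma 3.58.1 (R 4.3.3) was fitted to log2(FPKM + 1) using its variance trend, 1 coefficient per group, all 12 mice (12.8 degrees of freedom) and two-sided tests over 11528 genes. The fit was tested on simulated data. No depth could be recovered. Libraries of a group correlated at 0.977 to 0.9906 across genes, and none were identical.

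Members and lists were chosen with earlier results of these data known. Every one of the 38 genes could be named; those that passed are given per liver, and of other lists up to 5 called genes with the largest change and no overlap, plus Rxra, Ppargc1a, Dbp and markers. Cyp4a10 and albumin were named after their values were seen. Acaa1b, 1 of the 38 genes, was taken out of the list of PPAR-alpha targets. Alternatives were a pseudocount of 0.1, no filter, a minimum mean of 5 FPKM, quantile and median-of-ratios scaling, no variance trend, other ways of summing transcripts, GC correction (lowess, span 0.3), a clock covariate, the compared groups alone, mouse number as a block, and each liver left out. Sums by GENCODE gene and by reference transcripts alone were added after seeing the data. Protein sequences were not used here.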

Additional observations from a re-analysis of the deposited data

Results flagged for a closer look

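A transcript that Cufflinks assembled on the strand opposite to Ppara carries that gene's name and was left out of its sum. Its mean was 19.5 FPKM in ND, 26.8 FPKM in HFD, 37.8 FPKM in CLE and 43.5 FPKM in LU livers (n = 3 each), and its 6 values in CLE and LU livers, 33.2 to 53.1 FPKM, all lay above the 6 in ND and HFD livers, 16.9 to 32.5 FPKM. It is listed because it lies outside the values compared and was higher than in the control diet. The library kit does not mark strand, so reads of Ppara and of this transcript cannot be told apart. With it in the sum, Ppara no longer passed in LU against ND (-0.04 in place of -0.62, adjusted p = 0.86 by limma).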

How the results depend on the processing

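Of the 37 genes, 7 passed in HFD against ND, 3 in CLE against HFD, 0 in LU against HFD, 11 in CLE against ND, 9 in LU against ND, 0 in CLE against LU and 11 among all 4 groups. In HFD against ND the count was 1 with only each gene's most abundant transcript (highest mean), 3 with known transcripts and exact matches alone, 3 with reference transcripts alone, 4 with these and GC correction, and 0 with the clock covariate. In CLE against HFD it was 1 with no filter, 5 with known transcripts and exact matches, 1 with GC correction, and 0 with the clock covariate or the 2 groups alone. In LU against HFD it was 1 with quantile normalization. In CLE against ND it was 7 with GC correction, 7 with the 2 groups alone, and 0 with the clock covariate, which also left 0 in LU against ND and 0 among all 4 groups. ND clock scores lay below all CLE and LU scores, so in those comparisons the covariate cannot separate clock from diet. Leaving out single livers gave 2 to 8 in HFD against ND, 0 to 8 in CLE against HFD, 0 to 3 in LU against HFD, 6 to 14 in CLE against ND, 3 to 12 in LU against ND, 0 to 0 in CLE against LU and 5 to 15 among all 4 groups. Without mouse 2, 3 or 4 of the ND group, LU against ND had 3, 6 and 4 genes, and without mouse 2 or 3 of the LU group 3 and 4. Without mouse 4 of the CLE group, CLE against ND had 6 and LU against HFD 3. Without mouse 4 of the ND group, the F test found 5, and without mouse 2 it found 6.

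Called values that changed sign were Acox2 with the highest-mean transcript (-0.62 in CLE against ND and -0.69 in LU against ND). Cpt1a changed sign in LU against ND on reference transcripts alone with GC correction (-1.22). Without a call in either fit, Acsl1 (0.13 to -0.73) and Cpt1a (0.42 to -0.76) changed sign in CLE against HFD on reference transcripts alone. The cause was not tested. Acsl5 in HFD against ND lost its call only with the clock covariate, among 15 alternatives and 12 single livers left out.

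Mouse numbers recur in ND, CLE and LU but not in HFD. Deviations of mice with the same number correlated from -0.26 to 0.18, so the numbers were not taken to pair mice. With the number as a block, over the 9 ND, CLE and LU mice, the paired counts were 0 in CLE against ND and 0 in LU against ND.

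Over all genes, 1382 passed in HFD against ND and 267 to 718 with the clock covariate or fewer transcripts. In CLE against HFD 727 passed, against 92 to 345 with no filter, GC correction, the clock covariate, the highest-mean transcript or the 2 groups alone. In LU against HFD 118 passed, against 50 with the clock covariate, 57 with no filter and 275 with the 2 groups alone. In CLE against ND 3119 passed, against 15 with the clock covariate, 341 with the block and 1725 to 2017 with GC correction or the 2 groups alone, and in LU against ND 1727, against 16 and 19 with the covariate and the block. Among all 4 groups 2815 passed, against 232 to 1837, and in CLE against LU 1 gene, against 0 to 3. Leaving out single livers moved these counts to between 649 (without mouse 2 of the ND group) and 1655 (without mouse 4 of the CLE group) in HFD against ND, to between 28 (mouse 15 of the HFD group) and 2191 (mouse 2 of the CLE group) in CLE against HFD, and to between 11 (mouse 3 of the LU group) and 540 (mouse 4 of the CLE group) in LU against HFD. Against ND they ran from 1582 (mouse 4 of the ND group) to 3674 (mouse 2 of the CLE group) for CLE and from 641 (mouse 4 of the ND group) to 2493 (mouse 4 of the CLE group) for LU.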
